A study of Mus musculus with 313 samples.

Results

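Innate lymphoid cell precursors (ILCP) in which Bcl11b transcript was detected were compared with ILCP cells in which it was not, across a panel of 100 quantitative RT-PCR assays run on single cells. Cells were chosen by their own Bcl11b value. A cell counted as Bcl11b+ with a Ct below 24, where the Ct is the number of PCR cycles a signal needs to become detectable and a lower Ct stands for more cDNA. All other ILCP cells counted as Bcl11b-, a label that means "not detected" and does not show that the transcript was absent. The table held 299 ILCP and aLP cells and 14 LTiP cells, groups defined below. Of the ILCP cells, 51 were Bcl11b+, 22 of 62 in sort 2 and 29 of 90 in sort 3, and the other 40 and 61 were Bcl11b-. Bcl11b itself is therefore described without a test, and the tests concern the other assays.

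The cells came from pooled livers of mouse fetuses at embryonic day 15. Every cell had been sorted as lineage-negative, IL7Rα+ and α4β7+. ILCP cells were in addition PLZF+, the α4β7+ lymphoid precursors (aLP) were PLZF- and CXCR5-, and the lymphoid tissue inducer precursors (LTiP) were PLZF- and CXCR5+. Per the labels no activating agent was used, and strain and genotype are not given in the sources used here. Sorts are numbered 2 and 3 in the cell names, a number taken here as the sorting experiment although no label defines it. The livers were pooled before sorting, so a sort mixes several fetuses. The label ILCP held against its defining transcript, since Zbtb16, which encodes PLZF, was detected in 92.5% to 100.0% of the cells of the 4 ILCP pools, against 20.4% and 3.3% of aLP cells. It was also detected in 7 of 14 (50.0%) LTiP cells, although these were sorted as PLZF-.

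Bcl11b is a zinc finger transcription factor best known for T cell commitment in the thymus. Among innate lymphoid cells (ILCs), which lack antigen receptors, it is needed for the identity of group 2 ILCs (ILC2), which respond to interleukin-33 and interleukin-25 and secrete type 2 cytokines such as interleukin-13. PLZF marks a precursor stage from which ILC1, ILC2 and ILC3 subsets descend, while lymphoid tissue inducer cells and natural killer cells mostly branch off elsewhere. TCF-1, the product of Tcf7, is an activator of Bcl11b in early T cells and acts through a site with the core letters CTTTGA. The nuclear receptors RORα, which ILC2 require, and the retinoid X receptors bind half-sites with the letters AGGTCA.

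The promoter windows below show where these letters lie in the gene that defined the groups and in a pair of genes with the largest differences between them. They are the 250 bases before an annotated start, from RefSeq on assembly GRCm38.p6, written 5′ to 3′ on the gene's strand. Capitals mark a match to CTTTGA or AGGTCA or to its reverse complement, and the windows shown were picked because they hold a match. Other starts of Rxrg and Igf2 in the same table held none.
Bcl11b, chr12:108003415-108003664, minus strand: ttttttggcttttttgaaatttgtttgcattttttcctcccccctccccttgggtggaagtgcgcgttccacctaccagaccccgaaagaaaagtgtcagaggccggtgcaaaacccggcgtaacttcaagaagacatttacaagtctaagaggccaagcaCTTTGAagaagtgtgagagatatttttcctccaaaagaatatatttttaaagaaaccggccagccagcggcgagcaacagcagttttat
Rxrg, chr1:167618015-167618264, plus strand: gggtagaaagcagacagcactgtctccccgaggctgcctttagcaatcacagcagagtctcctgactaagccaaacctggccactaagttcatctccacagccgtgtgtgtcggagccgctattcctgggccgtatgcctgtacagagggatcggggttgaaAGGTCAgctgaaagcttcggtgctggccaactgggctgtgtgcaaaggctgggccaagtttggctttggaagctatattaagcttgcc
Igf2, chr7:142666817-142667066, minus strand: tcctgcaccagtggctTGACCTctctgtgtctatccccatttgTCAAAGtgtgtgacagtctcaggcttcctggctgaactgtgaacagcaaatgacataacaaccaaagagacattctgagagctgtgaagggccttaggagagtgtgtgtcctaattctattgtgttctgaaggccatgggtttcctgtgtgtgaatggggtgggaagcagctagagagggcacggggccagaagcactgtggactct

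The Bcl11b match lay at position -89 from the start and the Rxrg match at -88. In the Igf2 window the reverse complement of CTTTGA lay at -207 and that of AGGTCA at -234. Such 6-letter strings are common: on either strand, CTTTGA stood in 13.8% and AGGTCA in 14.0% of 32851 promoter windows of this length. The table held 8 of the genes that were higher in Bcl11b+ cells, with 19 windows, of which 1 (5.26%) held CTTTGA and 3 (15.8%) AGGTCA. A match describes the letters and no binding site.

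Bcl11b was an all-or-nothing measure in ILCP cells. In the 51 Bcl11b+ cells its Ct ran from 17.1 through a median of 20.8 to 23.9, and the second highest value was 22.9. None of the other ILCP cells had any Ct for the assay, so no cell lay just outside the threshold, while 9 cells lay between 22 and 24. No aLP or LTiP cell had a Bcl11b Ct.

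Bcl11b+ and Bcl11b- cells differed little in the number of assays they yielded. Leaving Bcl11b out, a Bcl11b+ cell had 41 ± 5.98 (SD, n = 22 cells) assays detected in sort 2 and 40.4 ± 5.73 (n = 29) in sort 3. A Bcl11b- cell had 40.0 ± 6.3 (n = 40) and 40.5 ± 5.18 (n = 61). The difference was 1.02 assays in sort 2 and -0.145 in sort 3, a mean of 0.438 ± 0.824 (SD, n = 2 sorts), so the sorts disagreed in sign. Taken as medians, the mean difference over the sorts was -1.0 assay. aLP cells, at 32.2 and 28.2 assays, and LTiP cells, at 33.6, yielded fewer.

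Median Ct values of the housekeeping assays Hprt, Actb and Tbp were higher in Bcl11b+ cells of both sorts. The median Hprt Ct was 15.8 in Bcl11b+ and 15.4 in Bcl11b- cells of sort 2, and 16.7 against 15.9 in sort 3. Actb differed by 0.45 and 0.185 cycles, and Gapdh differed by -0.0953 and 0.284 cycles. Tbp had a median Ct of 21 against 20.8 in sort 2 and 21.6 against 21.1 in sort 3. It was detected in 8 of 22 and 17 of 29 Bcl11b+ against 22 of 40 and 40 of 61 Bcl11b- cells. Among aLP cells Tbp was found in 0 of 54 of sort 2, all numbered above 96, against 47 of 92 of sort 3. Whether the Tbp assay worked in that number range of sort 2 was not tested. The range held 6 of the 22 Bcl11b+ and 4 of the 40 Bcl11b- cells of sort 2. The Tbp difference in sort 2 thus cannot be told apart from the number range. None of these assays passed the test described next (Hprt difference in mean level -0.64 ± 0.26 SE, adjusted p = 0.206). That Hprt difference includes a Ct of 2.51 in a Bcl11b- cell of sort 3, which raises the mean level of its pool. The share of Bcl11b+ cells also varied with the number in the cell name: in sort 2 it was 16 of 52 ILCP cells numbered up to 96 and 6 of 10 of the next 96 numbers, and in sort 3 it was 7 of 19, 14 of 32 and 8 of 39 in the first, the second and the third range of 96 numbers.

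**Figure D1:**
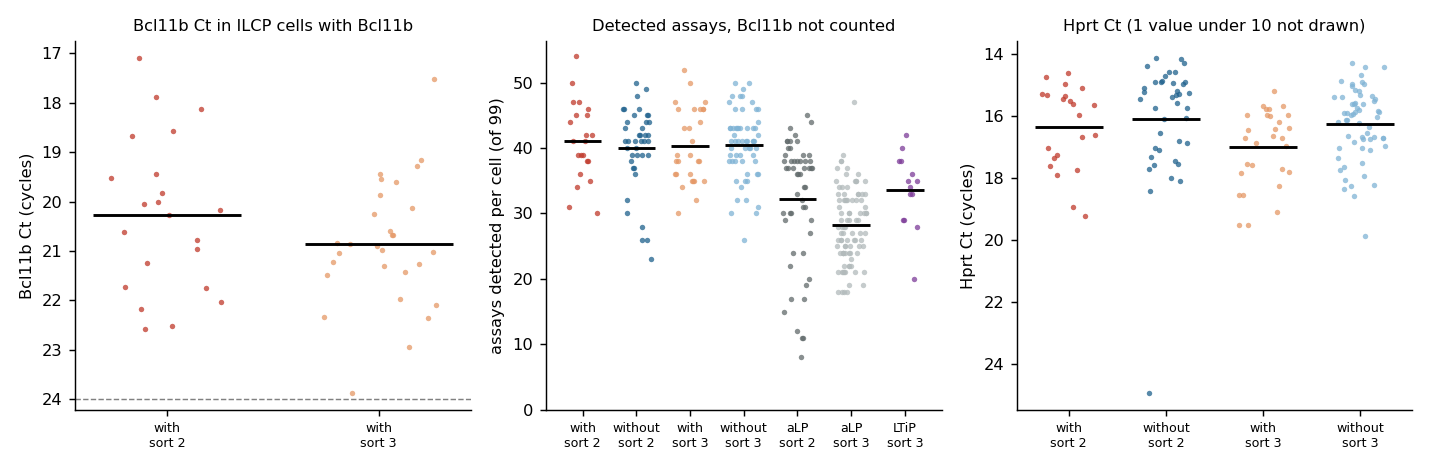
Bcl11b Ct of each Bcl11b+ ILCP cell (left, threshold of 24 dashed), number of the other 99 assays detected in each cell of the 7 pools (middle) and Hprt Ct in cycles of each ILCP cell (right), with black bars at the mean. The 4 ILCP pools overlap in assays per cell, with means from 40.0 to 41. These means lie above those of the aLP and LTiP pools, while the ranges of the cells overlap. In the right panel 1 Hprt Ct of 2.5 in a Bcl11b- cell of sort 3 is neither drawn nor part of the bar.

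Levels were compared between the 2 groups within each sort. The level of a gene in a cell was 24 minus its Ct, with 0 for an undetected gene, and cells of a group and sort were averaged to 1 pool value. A difference between pool values, given below as Bcl11b+ minus Bcl11b-, is in cycles. It reflects both how many cells had the gene and how much they had, and is not a fold. The test was limma on the 4 pools with the sort as a block, so the replicates are the 2 sorts and not the cells. Of 91 assays tested, 9 (9.89%) were higher and 8 (8.79%) lower in Bcl11b+ cells at an adjusted p under 0.05. An assay was tested when at least 5% of the cells of some ILCP pool had it. For 12 of the 91 assays only 1 of the groups reached that share, so that the filter favoured a direction, and none of them passed the test. Directions and medians of gene lists are therefore given over the other 79 assays. Both sorts gave a higher level in Bcl11b+ cells for 26 of these and a lower one for 34, and their median difference was -0.15 cycles.

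With 2 sorts these calls rest on little replication, and counts ran from 0 to 19 higher and 0 to 18 lower under other settings. Without the sort as a block no assay passed, and scaling to Actb, Gapdh and Hprt left 7 higher and 3 lower, or none in either direction when the single Hprt Ct of 2.5 was left out of the scaling.

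**Figure D2:**
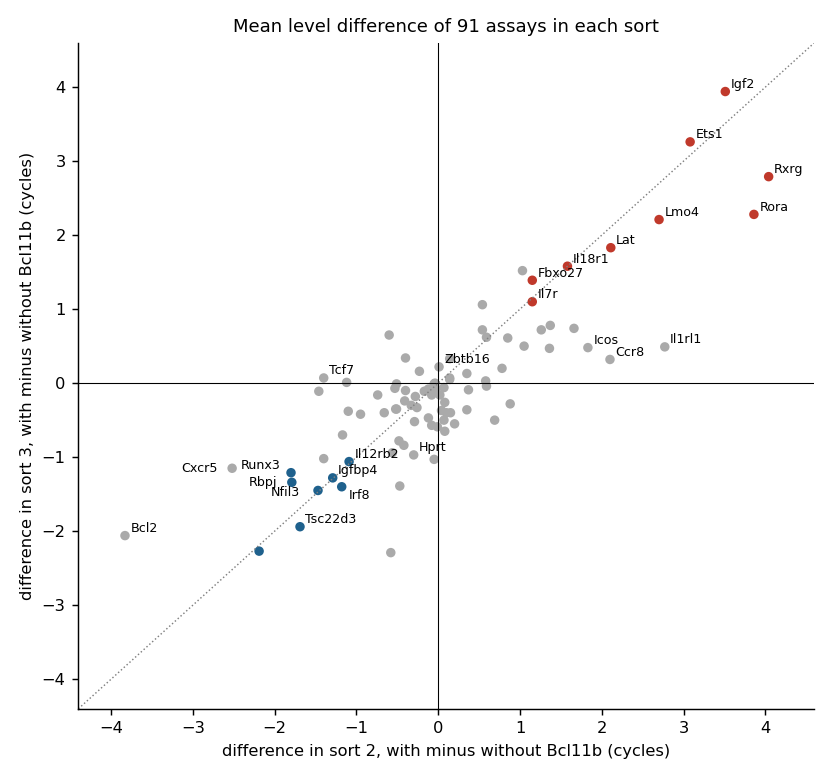
Difference in mean level, Bcl11b+ minus Bcl11b- ILCP cells, in cycles, in sort 2 (horizontal) and sort 3 (vertical) for 91 assays, with the 9 higher calls in red, the 8 lower calls in blue and the dotted line where both sorts are equal. Igf2, Ets1, Rxrg and Rora lie farthest to the upper right, while Icos, Il1rl1 and Ccr8 differ mainly in sort 2.

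The genes that separated the groups most were Igf2 and Rxrg, which most Bcl11b- cells did not express detectably. Igf2, an imprinted fetal growth factor gene, was detected in 11 of 22 (50.0%, exact 95% interval 28.2 to 71.8) Bcl11b+ cells of sort 2 and 17 of 29 (58.6%, 38.9 to 76.5) of sort 3. Among Bcl11b- cells it was found in 2 of 40 (5.0%, 0.611 to 16.9) and 8 of 61 (13.1%, 5.84 to 24.2). Its Ct in detecting Bcl11b+ cells ran from 12 through a median of 17.2 to 19 in sort 2, and from 11.8 through 15.7 to 19.4 in sort 3. The intervals of the groups did not overlap in either sort, and the few Bcl11b- cells of sort 3 with Igf2 reached the same lowest Ct of 11.8. Igf2 rose by 3.73 ± 0.22 (SE) cycles, 3.5 in sort 2 and 3.9 in sort 3 (adjusted p = 0.0203). H19, the imprinted noncoding RNA gene next to Igf2 and named after its values were seen, was common in both groups: 59.1% and 69% of Bcl11b+ against 45% and 70.5% of Bcl11b- cells (1.08 ± 0.25 cycles, adjusted p = 0.0961).

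Rxrg encodes the nuclear receptor RXRγ. It was detected in 18 of 22 Bcl11b+ cells of sort 2 (81.8%, 59.7 to 94.8) and 19 of 29 of sort 3 (65.5%, 45.7 to 82.1), against 6 of 40 (15%, 5.71 to 29.8) and 13 of 61 (21.3%, 11.9 to 33.7) Bcl11b- cells. Cells that had Rxrg had it at a like amount in both groups, with a median Ct of 18.2 in both groups of sort 2 and 17.7 in both groups of sort 3. The difference of 3.42 ± 0.4 cycles (4.0 and 2.8, adjusted p = 0.0384) thus lay in the share of cells, and among detecting cells alone it was 0.17 cycles. Outside ILCP cells Rxrg was found in 1 of 54 and 0 of 92 aLP cells and in 0 of 14 LTiP cells (a count of 0 leaves room for up to 3.3% and 21.4%).

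Ets1 and Rora, transcription factor genes that ILC2 development requires, were nearly universal in Bcl11b+ cells. Ets1 was detected in 22 of 22 and 27 of 29 Bcl11b+ cells, against 26 of 40 and 41 of 61 Bcl11b- cells. In sort 2 the median Ct of detecting cells was 16.7 in Bcl11b+ and 16.3 in Bcl11b- cells, whereas in sort 3 it was 16.6 against 19.2. Ets1 rose by 3.2 ± 0.18 cycles (3.1 and 3.3, adjusted p = 0.0203). Rora was detected in the same numbers of Bcl11b+ cells, 22 of 22 and 27 of 29, against 24 of 40 and 44 of 61, and rose by 3.07 ± 0.49 cycles (3.9 and 2.3, adjusted p = 0.0488). Both transcripts were found together in 22 of 22 and 26 of 29 Bcl11b+ cells, against 22 of 40 and 37 of 61 Bcl11b- cells. Rora was rare in aLP cells (11.1% and 2.2%) and present in 64.3% of LTiP cells. Ets1 was found in 29.6% and 30.4% of aLP cells and in 85.7% of LTiP cells.

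Lmo4, a LIM-only adaptor of transcription complexes, differed in amount rather than in share. It was detected in all 51 Bcl11b+ cells and in 95% and 96.7% of Bcl11b- cells. The median Ct was 14.4 in Bcl11b+ against 16.8 in Bcl11b- cells of sort 2, and 14.1 against 16.4 in sort 3. The ranges overlapped, from 11.3 to 19.6 in Bcl11b+ cells and from 12 to 22.7 in Bcl11b- cells over both sorts. Lmo4 rose by 2.46 ± 0.23 cycles (2.7 and 2.21, adjusted p = 0.0382).

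**Figure D3:**
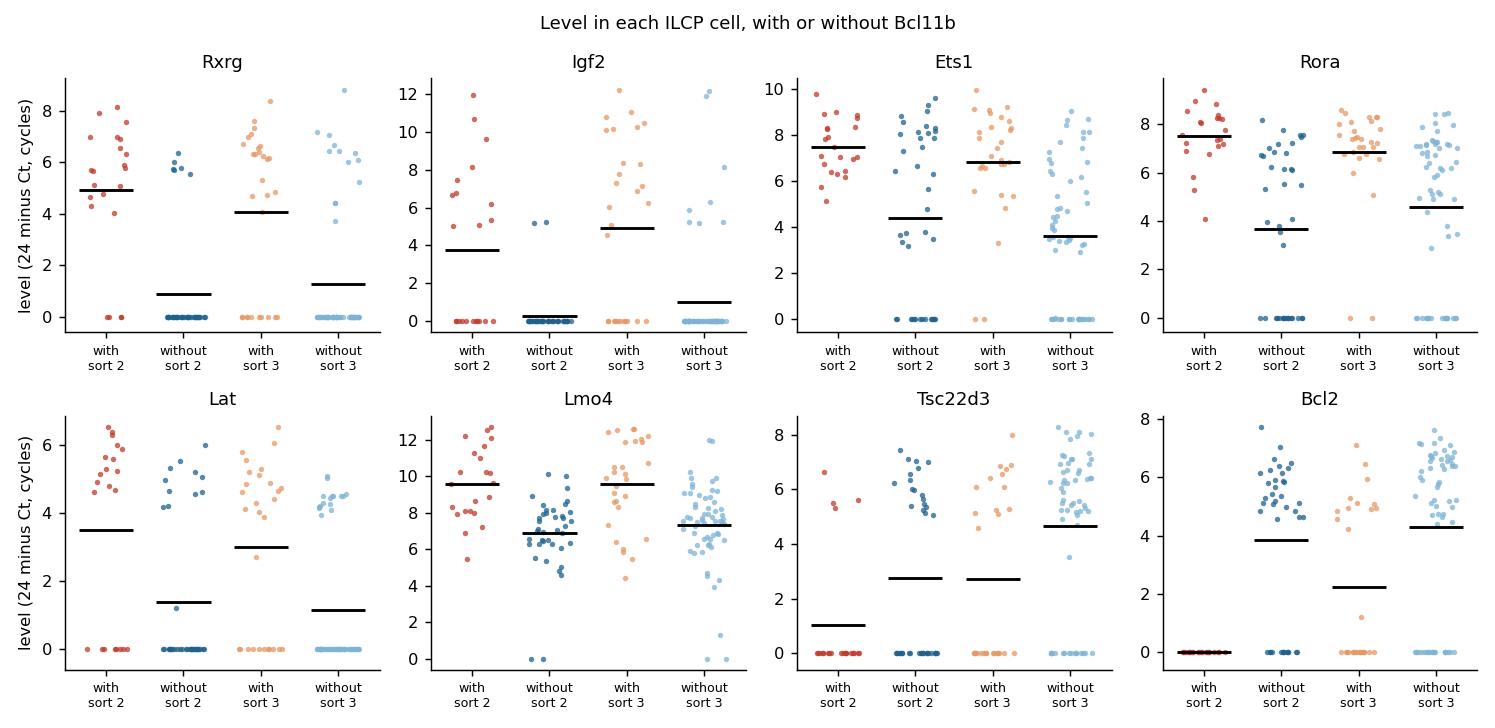
Level (24 minus Ct, in cycles, 0 where not detected) of Rxrg, Igf2, Ets1, Rora, Lat, Lmo4, Tsc22d3 and Bcl2 in each ILCP cell of the 4 pools, with black bars at the pool mean. Rxrg and Igf2 split cells into detected and not detected at different shares, and no Bcl11b+ cell of sort 2 has Bcl2. Lmo4 differs in mean level (9.58 and 9.55 in Bcl11b+ against 6.88 and 7.33 in Bcl11b- cells), with cells of both groups overlapping.

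Among receptors and signalling genes, Lat, Il18r1 and Il7r were higher in Bcl11b+ cells. Lat, the adaptor of T cell receptor signalling, was detected in 63.6% and 62.1% of Bcl11b+ cells, against 12 of 40 and 16 of 61 Bcl11b- cells, and rose by 1.97 ± 0.19 cycles (2.1 and 1.8, adjusted p = 0.0382). Il18r1, the binding subunit of the interleukin-18 receptor, was found in 72.7% and 51.7% against 55% and 21.3%, with a rise of 1.58 ± 0.18 cycles in each sort (adjusted p = 0.0384). Fbxo27, an F-box gene of ubiquitin ligases, was found in 40.9% and 51.7% against 17.5% and 23.0% and rose by 1.27 ± 0.19 cycles (adjusted p = 0.0488). Of 14 LTiP cells, none of which had a Bcl11b Ct, 9 had Lat, 8 had Il18r1 and 4 had Fbxo27. In aLP cells the shares were 14.8% and 2.2% for Lat, 16.7% and 10.9% for Il18r1 and 9.3% and 2.2% for Fbxo27.

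Il7r, the receptor chain used in the sort, rose (1.12 ± 0.18 cycles, adjusted p = 0.0488), and more Bcl11b+ cells had it: 68.2% and 58.6% against 47.5% and 34.4%. The cells that had it did not carry more, with a median Ct of 17.5 against 17.3 in sort 2 and 18.7 against 18.2 in sort 3. The difference was -0.45 cycles among detecting cells and -0.27 on a scale of mean amounts, neither of which passed the test. Il7r was also found in 55.6% and 30.4% of aLP cells and in 71.4% of LTiP cells.

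Genes of the ILC2 program were on the higher side in Bcl11b+ cells as a group. The list was chosen with earlier results of these data known, and no gene list was tested as a set. Ets1 and Rora are also counted among the precursor factors below. Of 11 tested ILC2 genes, 3 (Rxrg, Ets1 and Rora) passed as higher, against 9 of 91 assays (9.89%) in all, and none as lower. Of the 8 that reached 5% in both groups, 8 were higher in both sorts, against 26 of 79 assays in all, and their median difference was 1.1 cycles against -0.15. The other 3 passed the filter through 1 group, Icos and Il1rl1 through Bcl11b+ cells and Gfi1 through Bcl11b- cells. Icos, a costimulatory receptor, was detected in 10 of 22 and 4 of 29 Bcl11b+ cells against 1 of 40 and 2 of 61 Bcl11b- cells (difference 1.16 ± 0.43 cycles, adjusted p = 0.171). Il1rl1, the interleukin-33 receptor, was found in 10 of 22 and 3 of 29 against 1 of 40 and 2 of 61 (1.63 ± 0.69 cycles, adjusted p = 0.206). It was also found in 11.1% and 10.9% of aLP cells and in 1 of 14 LTiP cells, none of which had a Bcl11b Ct. For both genes Bcl11b+ and Bcl11b- cells stood far apart in sort 2 and their intervals overlapped in sort 3.

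Those sort 3 cells were not all alike. By ranges of 96 cell numbers, Icos was found in 3 of 7 Bcl11b+ cells of the first range, 1 of 14 of the second and 0 of 8 of the third. Il1rl1 was found in 2 of 7, 1 of 14 and 0 of 8. The difference between the number ranges was not tested.

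Other ILC2 receptors and factors leaned the same way. Il17rb, the interleukin-25 receptor, was detected in 36.4% and 24.1% of Bcl11b+ against 5.0% and 9.84% of Bcl11b- cells (adjusted p = 0.139), and in no aLP or LTiP cell (up to 5.56%, 3.3% and 21.4%). Il2ra was found in 22.7% and 17.2% against 7.5% and 6.56% (adjusted p = 0.129). Gata3, the master transcription factor of ILC2, was found in 45.5% and 44.8% against 32.5% and 23.0%, a difference of 0.8 ± 0.23 cycles (adjusted p = 0.129). Il13, the ILC2 cytokine gene, was named after its values were seen. It was detected in 9 of 22 and 5 of 29 Bcl11b+ cells against 5 of 40 and 1 of 61 Bcl11b- cells (0.99 ± 0.24 cycles, adjusted p = 0.0961). The chemokine receptor Ccr8 was found in 81.8% and 55.2% against 45% and 41% (1.21 ± 0.55 cycles, adjusted p = 0.231), so that its difference of 2.1 cycles in sort 2 shrank to 0.32 in sort 3.

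Counted cell by cell, several ILC2 markers met in single Bcl11b+ cells. Of 7 markers (Gata3, Rora, Il17rb, Il1rl1, Icos, Il9r and Il2ra), 6 were on the panel. A Bcl11b+ cell had 2.95 ± 1.29 (SD, n = 22) of them in sort 2 and 2.03 ± 1.05 (n = 29) in sort 3, and a Bcl11b- cell 1.1 ± 0.871 (n = 40) and 1.18 ± 0.885 (n = 61). At least 3 markers were found in 15 of 22 and 10 of 29 Bcl11b+ cells and in 2 of 40 and 5 of 61 Bcl11b- cells. At least 4 were found in 7 of 22 and 2 of 29 Bcl11b+ cells and in none of the Bcl11b- cells, which allows up to 7.5% and 4.92%. aLP cells had 0.37 and 0.13 markers and LTiP cells 0.786. The 6 include Icos and Il1rl1, which passed the filter through Bcl11b+ cells only, and Rora, which is called higher above. The higher count in Bcl11b+ cells thus partly repeats those results, and a count without these genes was not made. The marker count is over cells of the same pools as the levels above and carries no test.

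**Figure D4:**
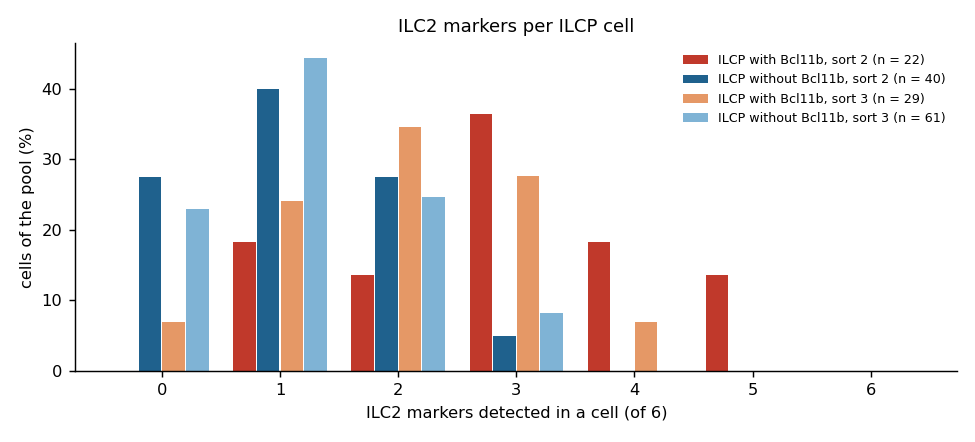
Percent of cells of each ILCP pool by the number of the 6 ILC2 markers detected in a cell, with Bcl11b+ pools in red tones and Bcl11b- pools in blue tones. Among the ILCP pools, Icos and Il1rl1 reached 5% of cells in Bcl11b+ pools only. Bcl11b- cells peak at 1 marker and none exceeds 3, whereas Bcl11b+ cells peak at 3 in sort 2 and 2 in sort 3 and reach 5 and 4.

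Genes that were lower in Bcl11b+ cells included Tsc22d3, the glucocorticoid-induced leucine zipper gene. It was detected in 4 of 22 (18.2%, 5.19 to 40.3) and 13 of 29 (44.8%, 26.4 to 64.3) Bcl11b+ cells against 18 of 40 (45%, 29.3 to 61.5) and 45 of 61 (73.8%, 60.9 to 84.2) Bcl11b- cells. Tsc22d3 fell by 1.81 ± 0.19 cycles, and the differences were -1.69 in sort 2 and -1.94 in sort 3 (adjusted p = 0.0382). Its level was higher in sort 3 than in sort 2 in both groups, and the mean of the Bcl11b+ pool of sort 3 (2.72 cycles) lay just under that of the Bcl11b- pool of sort 2. Igfbp4, which encodes a binding protein of insulin-like growth factors, was found in 18.2% and 62.1% against 37.5% and 75.4% (-1.29 ± 0.18 cycles, adjusted p = 0.0479). Its ligand gene Igf2 was thus higher and this binding protein lower in the same pools. Il12rb2, the interleukin-12 receptor chain of ILC1 and natural killer cells, was found in 2 of 22 and 8 of 29 against 17 of 40 and 34 of 61 cells (-1.07 ± 0.18 cycles, adjusted p = 0.0488).

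Several transcription factor genes were also lower. Nfil3, which acts at the start of ILC development, was detected in 45.5% and 31% of Bcl11b+ against 60.0% and 50.8% of Bcl11b- cells. Its median Ct in detecting cells was higher by more than a cycle in both sorts (20.2 against 18.8 and 20.6 against 18.9), and it fell by 1.46 ± 0.18 cycles (adjusted p = 0.0384). Irf8, a myeloid and dendritic cell factor that 74.1% and 79.3% of aLP cells also had, was found in 27.3% and 20.7% against 47.5% and 39.3% (-1.29 ± 0.19 cycles, adjusted p = 0.0488). Runx3, used by ILC1 and ILC3, was detected in 81.8% and 89.7% of Bcl11b+ against 95.0% and 95.1% of Bcl11b- cells. Rbpj, the DNA-binding factor of the Notch pathway, was detected in 77.3% and 93.1% against 97.5% and 95.1%. Runx3 had a median Ct of 17.5 and 17.1 in Bcl11b+ against 16.3 and 15.9 in Bcl11b- cells (-1.51 ± 0.24 cycles, adjusted p = 0.0488). Rbpj had 17.9 and 18.6 against 17.3 and 17.1 (-1.57 ± 0.22 cycles, adjusted p = 0.0479).

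The later Hprt Ct of Bcl11b+ cells moves in the same direction as these lower calls, and its part in them was not tested. Under scaling to Actb, Gapdh and Hprt the lower calls left included Tsc22d3 and Nfil3, while Runx3 stood at -1.2 cycles (adjusted p = 0.173) and Rbpj at -1.2 (adjusted p = 0.14). With the single Hprt Ct of 2.5 left out of that scaling, no assay passed in either direction, at 19 higher and 11 lower with an unadjusted p under 0.05 in limma.

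Bcl2, the survival factor gene, had one of the largest differences and did not pass (-2.95 ± 0.54 cycles, adjusted p = 0.0569). It was detected in 0 of 22 Bcl11b+ cells of sort 2 (a count of 0 leaves room for up to 13.6%), against 27 of 40 Bcl11b- cells. In sort 3 it was detected in 13 of 29 against 43 of 61. The sorts thus gave -3.83 and -2.06 cycles. In sort 3 the Bcl11b+ share was 4 of 7, 5 of 14 and 4 of 8 in the 3 number ranges, each below the Bcl11b- share of its range (10 of 12, 12 of 18 and 21 of 31).

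Cxcr5, the chemokine receptor that gated LTiP cells, did not pass either. It was detected in 2 of 22 and 10 of 29 Bcl11b+ cells against 22 of 40 and 31 of 61 Bcl11b- cells (-1.84 ± 0.44 cycles, adjusted p = 0.0961). Cdkn1c, an imprinted cell cycle inhibitor gene, differed mainly in sort 3, with 13.8% against 52.5%, and little in sort 2, with 31.8% against 35% (adjusted p = 0.171). Sox4, a factor of early lymphoid cells, was found in 50.0% and 79.3% against 62.5% and 91.8% (-1.21 ± 0.21 cycles, adjusted p = 0.0526). On the higher side, the chemokine receptor Cxcr6 was found in 59.1% and 44.8% against 42.5% and 14.8% (1.27 ± 0.23 cycles, adjusted p = 0.0549). These genes had the same sign in both sorts, and their adjusted p lay above 0.05.

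**Figure D5:**
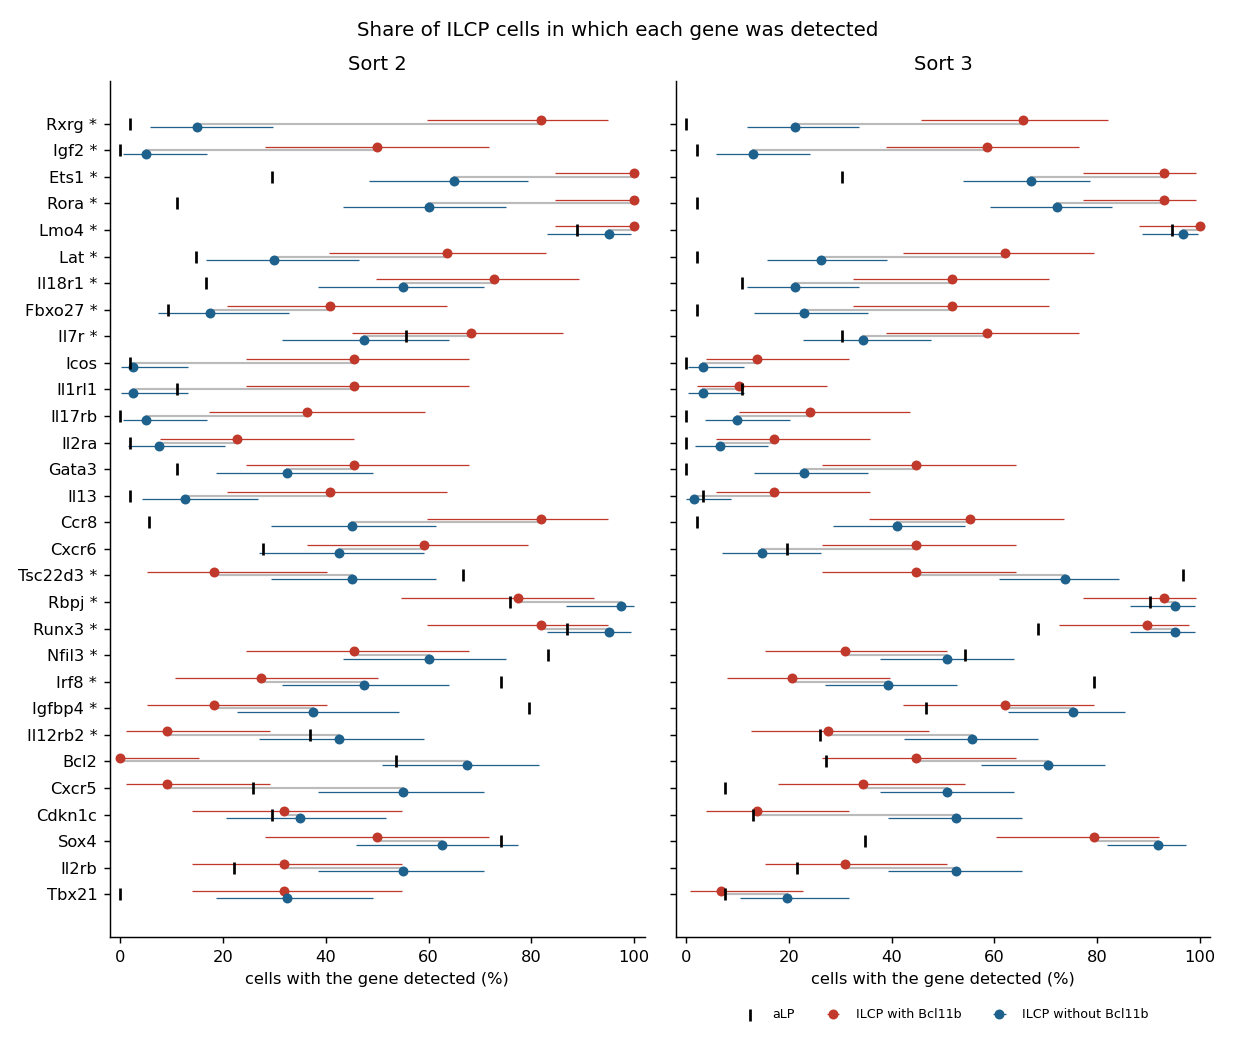
Percent of Bcl11b+ (red) and Bcl11b- (blue) ILCP cells in which each of 30 genes was detected, in sort 2 and sort 3, with exact 95% intervals that cover counting error only, black ticks for aLP cells and a star for genes that passed the test. Rxrg, Igf2, Rora and Ets1 are to the right in Bcl11b+ cells of both sorts, and Tsc22d3 and Il12rb2 to the left.

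Most factors of the shared ILC precursor program were found in both groups. Of 12 such genes tested, 2 (Ets1 and Rora) passed as higher and 2 (Nfil3 and Runx3) as lower, against 9 and 8 of all 91 assays. Over the 10 that reached 5% in both groups, the median difference was -0.37 cycles, against -0.15 over all 79 such assays. Zbtb16 was detected in 95.5% and 100.0% of Bcl11b+ against 92.5% and 95.1% of Bcl11b- cells, with mean levels of 7.51 and 8.14 against 7.5 and 7.93 (adjusted p = 0.694). Tcf7, which encodes TCF-1, was found in 81.8% and 96.6% against 92.5% and 96.7% (adjusted p = 0.392). Its relative Lef1 was rare, in 3 of 22 and 2 of 29 against 1 of 40 and 1 of 61 cells (adjusted p = 0.43). Tox was found in over 90% of the cells of every pool, with median Ct values in Bcl11b+ and Bcl11b- cells of 16.8 against 15.1 and 16.4 against 15.2 (-0.94 ± 0.22 cycles, adjusted p = 0.0961). Id2, the inhibitor of E proteins that all ILCs need, was found in 40.9% and 31% against 35% and 37.7%, with median Ct values from 22.6 to 23.0, close to the limit of 24, in every pool.

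Genes of the other ILC lineages were called in both directions or not at all. Of 6 ILC1 and natural killer genes tested, 1 (Il18r1) passed as higher and 1 (Il12rb2) as lower, against 9.89% and 8.79% of all assays. Their markers Eomes and Ncr1, which passed the filter through Bcl11b- cells of sort 2 alone, were rare, with Eomes in 0 of 22 and 1 of 29 Bcl11b+ cells against 5 of 40 and 3 of 61, and Ncr1 in 0 of 51 (up to 5.88%) against 3 of 40 and 1 of 61. Il2rb was found in 31.8% and 31% against 55% and 52.5% (adjusted p = 0.123). Tbx21, the master factor of ILC1, was found in 31.8% against 32.5% in sort 2 and in 6.9% against 19.7% in sort 3 (adjusted p = 0.586). A Bcl11b+ cell had 0.727 and 0.69 of 5 ILC1 and natural killer markers, and a Bcl11b- cell 1.5 and 1.34. Over the 4 genes of the ILC1 and natural killer list that reached 5% in both groups, 1 was higher and 2 lower in both sorts. Their median difference was -0.48 cycles, against -0.15 over all 79 such assays.

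The LTi and ILC3 genes gave no call among 8 tested in limma, with a median difference of -0.04 cycles. A Bcl11b+ cell had 0.773 and 1.0 of 7 LTi and ILC3 markers against 1.7 and 0.869 in a Bcl11b- cell, and an LTiP cell 3.5. The B lineage factors Pax5 and Ebf1 were detected in no Bcl11b+ (up to 5.88%) and no Bcl11b- cell (up to 2.97%).

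The T lineage list, to which Bcl11b belongs by function, had 10 tested genes, of which 1 (Lat) passed as higher and none as lower, a share like that of all assays (9.89% and 8.79%). Over the 8 that reached 5% in both groups, the median difference was 0.19 cycles. Of 8 cytokine receptor genes, Il18r1 and Il7r passed as higher and Il12rb2 as lower, and the median over 7 was 0.63 cycles. Of 10 Notch pathway genes, Rbpj passed as lower. Over 9 of them, 5 were lower and 2 higher in both sorts, and the median was -0.25 cycles. Over all 79 assays that reached 5% in both groups, 34 were lower and 26 higher in both sorts, with a median of -0.15 cycles. Numb, an inhibitor of Notch, was found in 54.5% and 41.4% of Bcl11b+ against 25% and 24.6% of Bcl11b- cells (1.2 ± 0.32 cycles, adjusted p = 0.118). Groucho co-repressor genes gave 0 calls of 5 in limma, against 9.89% higher and 8.79% lower of all assays. Of these genes 3 of 4 were lower in both sorts, with a median of -0.28 cycles, beside the same 34 of 79 and -0.15. Tle1 of this family was found in 27.3% and 3.45% against 40.0% and 36.1% (adjusted p = 0.16).

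The comparison was repeated with the number of detected assays held alike, by dividing the cells of a sort into 3 classes of assay number and weighting the Bcl11b- cells to the classes of the Bcl11b+ cells. In limma 2 of 91 assays passed as higher (2.2%), Igf2 at 3.64 ± 0.13 cycles and Ets1 at 3.1 ± 0.12 cycles, each with an adjusted p of 0.0477. None passed as lower (0.0%), at 11 lower and 16 higher with an unadjusted p under 0.05. The sizes moved little: 88 of 91 differences kept their sign, and all 17 assays called without the matching had an unadjusted p under 0.05 with it. Rxrg stood at 3.52 cycles with an adjusted p of 0.0843.

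Read from the other side, most cells with some of these genes were Bcl11b+, whereas 33.6% of all ILCP cells were. These are the same cells as above, counted the other way, and carry no test. Bcl11b was detected in 14 of 17 cells with Icos, 13 of 16 with Il1rl1, 28 of 38 with Igf2, 14 of 20 with Il13, 37 of 56 with Rxrg and 15 of 23 with Il17rb. Genes that many Bcl11b- cells shared gave lower shares: 23 of 50 cells with Gata3, 31 of 66 with Il18r1 (47.0%), 32 of 72 with Il7r (44.4%), 42.2% of cells with Ets1, 41.9% with Rora and 34.5% with Lmo4. Conversely, of 36 cells without Ets1 only 2 had Bcl11b, and of 35 cells without Rora only 2. Among cells with Bcl2, 13 of 83 had Bcl11b, against 38 of 69 cells without it. Of cells with Cxcr5, 12 of 65 were Bcl11b+, and of cells with Tbx21, 9 of 34.

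Bcl11b+ cells varied among themselves. Rxrg and Igf2 were detected together in 10 of 22 and 13 of 29 of them, and neither was detected in 3 and 6. Icos and Il1rl1 met in 6 of 22 cells of sort 2 and 2 of 29 of sort 3, and in no Bcl11b- cell. Each of these genes was found in only 1 of 40 and 2 of 61 Bcl11b- cells, so few of those cells could have had both. Il17rb and Il1rl1 met in 4 of 22 Bcl11b+ cells of sort 2 but in 0 of 29 of sort 3. In that sort 7 Bcl11b+ cells had Il17rb alone and 3 had Il1rl1 alone. No Bcl11b- cell had both Il17rb and Il1rl1. Among the 13 Bcl11b+ cells of sort 3 with Bcl2, 9 also had Rxrg and 9 had Igf2. Gata3 and Rxrg were found together in 9 of 22 and 8 of 29 Bcl11b+ cells against 1 of 40 and 6 of 61 Bcl11b- cells.

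Bcl11b+ cells were also set side by side by their amount of Bcl11b, with no test. Bcl11b+ cells with a Bcl11b Ct under the median of their sort had 2.9 ± 1.22 (SD, n = 11) of the 6 ILC2 markers in sort 2 and 2.07 ± 1.14 (n = 14) in sort 3. Cells at or over that median had 3.0 ± 1.41 (n = 11) and 2.0 ± 1.0 (n = 15). The median Bcl11b Ct was 20.3 in cells with and 20 in cells without Igf2 in sort 2, and 20.7 and 21 in sort 3. For Rxrg it was 20.1 and 21.7 in sort 2 but 21.2 and 20.8 in sort 3. For Gata3 it was lower in cells with the gene in both sorts, 19.1 against 20.7 and 20.7 against 21.1, with ranges that overlapped.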

How the data were processed

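Raw Ct values of 100 assays in single cells were deposited by the authors without normalization, per the file headers; no other unit was used. Per the labels, cDNA was preamplified before the run on a Biomark HD. The sources used here do not state when a Ct was set to missing. All cells entered except 1 aLP cell with fewer than 5 assays. No per-cell scaling was applied. Depth of a qPCR cell was described by the number of assays below a Ct of 24.

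Cells of a group were pooled within a sort, and the pool served as the replicate. Both pools of a sort come from the same sorted cells, so the sort was a block in the main fit, and p-values measure the spread between 2 sorts, which may be technical. Of the 99 assays other than Bcl11b, 91 reached 5% of cells with a Ct below 24 in some pool and were tested with limma 3.58.1 in R 4.3.3 (lmFit, eBayes, Benjamini-Hochberg, threshold 0.05). The code was tested on simulated data. Shares carry exact Clopper-Pearson 95% intervals from scipy 1.17.1 in Python 3.11.15, and a share of 0 the limit of 3 cells, both for counting error only. Figures used matplotlib 3.10.9.

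Named genes were up to 12 called assays a direction, filled to 24 by size with assays of the same sign in both sorts, plus gate, housekeeping and lineage factor genes and examples from 19 gene lists. Values of 2 of the assays are not reported here, although both stayed in the fits and counts. The members and lists were chosen with earlier results of these data known. Assay names matched a mouse table of GRCm38.p6 by symbol for 98, by synonym for 1 (Aes) and not for 1 (Pira11). Alternatives varied the Ct limits, the averaging, the scaling, the matching, the filters and the block, and 2 were chosen after the data had been seen.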

Additional observations from a re-analysis of the deposited data

How the results depend on the processing

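Among 91 tested assays 9 were higher and 8 lower in Bcl11b+ cells. These counts (higher, then lower) became 5 and 3 with a Bcl11b limit of 22, 0 and 0 with shares of detecting cells, 0 and 0 with detecting cells only, 0 and 0 with linear means, 2 and 0 with the number of assays held alike, 19 and 18 with the trend and robust options of limma, and 17 and 15 in cells with at least 30 assays. At an unadjusted p under 0.05 the settings with 0 calls had 12 and 10, 5 and 9, and 12 and 10 assays. Scaling to Actb, Gapdh and Hprt left 3 lower, and leaving 1 Hprt Ct out of it, chosen after the data had been seen, 0 and 0. Matching each cell to the nearest in assay number gave 13 lower. Without the replicate block that pairs the pools of a sort, 0 and 0 passed (8 and 9 unadjusted). With the number of assays held alike, the 2 higher and 0 lower became 6 and 3 in 2 classes of assay number, 17 and 11 in 5 classes, 0 higher with shares, 13 and 13 with the nearest cell, and 5 higher without the replicate block. The difference in assays per cell was -1.0 with medians and ran from -0.145 to 1.02 without either sort. A fit without a sort leaves no residual degree of freedom and gave no count.

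Of 354 values of the 17 called genes under other settings, 352 kept their sign. The exceptions were Il7r at -0.45 (detecting cells only) and -0.27 (linear mean). Signs also turned for 12 genes that did not pass. Scaling to housekeeping genes, with and without the 1 Hprt Ct, gave 0.19 and 0.19 for Itga4, 0.1 and 0.06 for Actb, 0.23 and 0.2 for Gapdh, 0.04 and 0.04 for Id2, and 0.07 and 0.03 for Tle4. Differences of shares were 4.57 points for Itga4, 1.25 for Hprt, 0.65 for Tox and 1.76 for Tle4. Detecting cells alone gave -0.22 for Zbtb16, -0.11 for Cd27, 0.24 for Itga2b and -0.12 for Il2ra, and linear means -0.17 for Zbtb16 and 0.16 for Tbx21. Itga4 was 0.03 with a Ct limit of 28, Zbtb16 -0.15 in cells with at least 30 assays, and Id2 0.0 with a Ct limit of 22 and 0.01 with a Bcl11b limit of 22. The cause of these changes was not tested. A transcript is counted here only below the Ct limit, and the median Ct of Id2 lay close to it.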

Other observations

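Counts of calls in the remaining gene lists stand beside 9 higher and 8 lower of all 91 assays, and most of these lists hold under 6 tested genes. The TNF family (6 tested), the E and Id proteins (2 tested) and the single early progenitor and megakaryocyte genes had 0 calls in limma. The growth, survival and glucocorticoid list (5 tested) had 1 lower call, Tsc22d3, with a median of -0.63 cycles. Among 4 imprinted and IGF axis genes, Igf2 was higher and Igfbp4 lower. The B lineage list (4 tested) had Il7r higher and Irf8 lower, both of which other lists share, and the myeloid list (2 tested) had Irf8 lower. Among 4 gate genes Il7r was higher, and the 4 housekeeping genes had 0 calls. Of the housekeeping genes 3 were lower in both sorts, against 34 of 79 assays that reached 5% in both groups. Their median was -0.41 cycles, against -0.15.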
